A study of Homo sapiens with 2 samples.

Results

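The data describe 935 places in the genome of Ewing sarcoma cells where EWS-FLI CUT&Tag signal was called far from any protein-coding gene. In CUT&Tag an antibody brings a transposase to the protein of interest, which inserts sequencing adapters into the DNA nearby. The series describes the assay as one for the binding of EWS-FLI, in cells of TC32, a long-established line from an Ewing sarcoma, and 1 library came from siEWS-FLI cells and 1 from siNEG cells. The labels give no other treatment and leave both the antibody and the meaning of siNEG unstated, and nothing in the files measures how much EWS-FLI was left in the cells. Both libraries were amplified by 14 and then 20 cycles of PCR, per the labels' protocols. Binding data hold no expression, so the cell type label was not checked against markers.

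A far site is a siNEG interval on chromosomes 1 to 22 or X with a −log10 q of 5 or more whose summit lies outside every protein-coding gene and more than 50 kb from the nearest protein-coding gene end. Summits within 1 kb of the end of a long non-coding RNA (lncRNA) gene were left out. The 935 sites were found among 16274 siNEG intervals, of which 8798 reached the same −log10 q. Of those 8798, 4147 had a summit at most 1 kb from the end of a protein-coding gene, 2305 inside a gene, 1336 between genes but within 50 kb, and 75 beyond 50 kb at an lncRNA end. The siEWS-FLI list held 6362 intervals on the same chromosomes and was not used to choose the sites.

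EWS-FLI joins the activating part of EWSR1 to the DNA-binding ETS domain of FLI1. It is known to bind single GGAA motifs near promoters and enhancers, and runs of GGAA repeats (microsatellites), many of them far from genes, which it can turn into active enhancers. Distal sites of this kind act on genes through chromatin loops that can span large distances. Gene deserts also hold centromeres, repeat arrays and inserted copies of mitochondrial DNA, where short reads may match several places.

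The sequence of a far site could be shown where a RefSeq promoter window (GRCh38.p14, 300 bases around an annotated gene start) reached into it, which was so for 3 of the 935 sites. They are shown because they are the stretches of far sites in which the ETS core can be read directly, with GGAA, or TTCC where the motif lies on the other strand, in capitals. The first comes from the site between TMEM18 and SNTG2 that both libraries called, at chr2:740636-740894 on the plus strand; its summit lies just outside the window. The second comes from a siNEG-only site between FAT4 and INTU, at chr4:126243083-126243372 on the minus strand. The third comes from a siNEG-only site in the T-cell receptor delta locus, at chr14:22432704-22432978 on the minus strand. The far rule left out summits near the ends of lncRNA genes, yet some of these windows carry the names of lncRNA genes. Whether these windows sit at the gene ends used by that rule was not checked.
LOC105373480: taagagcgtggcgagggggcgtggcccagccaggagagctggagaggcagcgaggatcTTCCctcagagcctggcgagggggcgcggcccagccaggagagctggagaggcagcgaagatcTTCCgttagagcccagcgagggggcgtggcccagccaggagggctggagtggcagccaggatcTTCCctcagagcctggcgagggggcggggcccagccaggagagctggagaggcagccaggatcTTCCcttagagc
LOC105377409: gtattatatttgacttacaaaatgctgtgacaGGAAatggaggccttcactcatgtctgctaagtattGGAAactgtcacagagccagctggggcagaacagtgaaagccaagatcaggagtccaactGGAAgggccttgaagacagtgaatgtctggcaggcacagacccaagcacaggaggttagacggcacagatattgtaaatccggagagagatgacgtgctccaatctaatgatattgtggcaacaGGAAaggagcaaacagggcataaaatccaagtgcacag
TRD-AS1: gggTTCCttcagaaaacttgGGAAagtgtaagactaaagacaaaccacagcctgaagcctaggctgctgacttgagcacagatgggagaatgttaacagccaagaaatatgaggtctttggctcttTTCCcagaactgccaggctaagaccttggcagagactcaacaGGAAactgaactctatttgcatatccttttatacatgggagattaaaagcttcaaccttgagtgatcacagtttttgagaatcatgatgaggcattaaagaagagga
The first stretch held 4 TTCC in 259 bases, spaced along a repeat, and its GC content was 69.1%. Shifted by 126 bases, the stretch matched itself at 91.7% of positions. That shift was the best match and is longer than the repeat unit, since neighbouring TTCC lie closer together. The whole window held 4 motifs, and 46.0% of the 35116 promoter windows held as many. The second stretch held 4 GGAA in 290 bases and the third 2 GGAA and 2 TTCC in 275 bases. Each of these windows held 5 motifs, which 28.6% of all windows also reached. No tandem GGAA pair was present in any of the 3 windows, against 3.67% of all promoter windows with one.

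With siNEG, the far sites were mostly small. The summit pileup, the number of reads stacked at the highest point, had a median of 12 (interquartile range 9 to 19), and the interval width had a median of 363 bases (range 200 to 1432). The other 7863 siNEG intervals at the threshold had medians of 14 reads and 421 bases. The median fold over local background was 7.53 at far sites and 8.22 at the others, and the median −log10 q was 9.24 and 10.6. More than 1 summit was listed in 67 far sites (7.17%) and in 740 others (9.41%). The rule used the siNEG −log10 q, so these values describe the sites and support nothing further. The weakest members, at a −log10 q of 5.05, had 8 reads, and the strongest intervals that missed the threshold, at 4.99, had 7.

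The siEWS-FLI library was the shallower one, and every read count below is raw. Its library-wide background was 0.239 reads per base, against 0.348 in the siNEG library, a ratio of 0.687. Before merging and selection it held 6559 peak lines, against 17313 with siNEG. Replicates were not made, so there is no test, intervals cover counting error only, and a difference between the libraries cannot be told apart from a difference between the treatments.

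Most far sites were called only with siNEG. Of the 935, 122 overlapped a siEWS-FLI interval by at least 1 base, a share of 13.0% (11.0 to 15.4, 95% Clopper-Pearson interval). The share over all 8798 siNEG intervals at the threshold was 26.0%, and over the 7863 that were not far it was 27.5% (26.5 to 28.5). Far sites were also shared less often than intervals at gene ends (37.2%, 35.8 to 38.7). The gap was smaller against intervals inside genes (15.5%, 14.0 to 17.0) and between genes within 50 kb (18.7%, 16.7 to 20.9), and the interval for the inside-gene share overlaps that of the far sites. Of a further 1241 far intervals under the siNEG threshold, 26 were shared (2.10%). Over all 16274 siNEG intervals the share was 15.6%. These include the 8798 at the threshold, so the 15.6% is not a share at like strength.

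Sharing was higher at stronger sites in every location, so the locations were compared within 5 equal classes of siNEG −log10 q. Far sites were shared at 5.63%, 6.57%, 14.4%, 14.8% and 34.2% from the weakest to the strongest class, and intervals at gene ends at 10.2%, 13.7%, 23.4%, 38.8% and 73.8%. In the strongest class 41 of 120 far sites were shared, with an interval of 25.8 to 43.4%, against 71.1 to 76.3% at gene ends. The strongest intervals inside genes (47.0%, 41.1 to 53.0) and between genes within 50 kb (48.7%, 41.5 to 56.0) lay between these. Weighted to equal strength, the shared share was 15.1% for far sites and 26.9% for all others, a difference of −11.8 percentage points (−14.4 to −9.29). Where an overlap of 50% of both intervals was required, the difference was −2.77 points (−4.97 to −0.571). The weighted difference was −16.9 points against gene ends, −5.94 against sites between genes within 50 kb and −3.74 (−6.64 to −0.836) against sites inside genes.

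**Figure D1:**
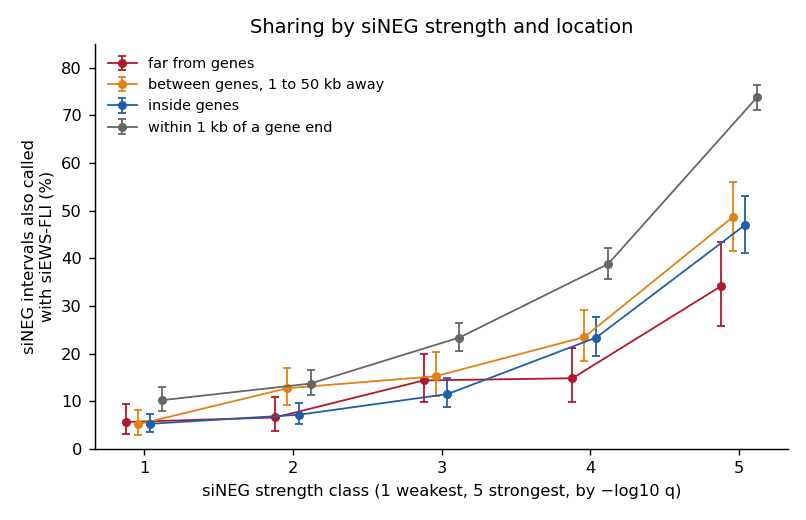
Share of siNEG intervals that overlap a siEWS-FLI interval (y, percent) in 5 equal classes of siNEG −log10 q (x, weakest to strongest), for far sites and for 3 nearer locations. Points are shares and bars are 95% Clopper-Pearson intervals; in the strongest class the far sites reach 34.2% and the intervals at gene ends 73.8%.

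Where a far site was shared, its siEWS-FLI pileup was usually the lower of the pair. Over the 122 shared sites the median pileup was 9 reads with siEWS-FLI and 21 with siNEG, and the median ratio of siEWS-FLI over siNEG was 0.545, with a range of 0.0658 to 1.75. Each ratio compares the summits of the overlapping intervals, which lay within 100 bases of each other at 95 of the 122 sites. At the other shared intervals the medians were 8 and 30 reads and the median ratio was 0.273. These medians were not matched for siNEG strength. With 10 to 19 siNEG reads the median ratio was 0.588 at shared far sites and 0.471 at the others. With 50 or more it was 0.255 and 0.138. Far sites of that strength outside gaps with a centromere and mitochondrial pseudogenes, both described below, had a median ratio of 0.136. A ratio of 0.5 or more was found at 74 of the 122 shared far sites, against 22.7% of all shared intervals at the threshold. Those 74 sites had medians of 12.5 reads with siEWS-FLI and 14 with siNEG. The other 48 had medians of 7 and 30 reads. An interval must pass the caller in the siEWS-FLI library to have a pileup there, so weak siNEG sites with a low ratio could not be seen.

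**Figure D2:**
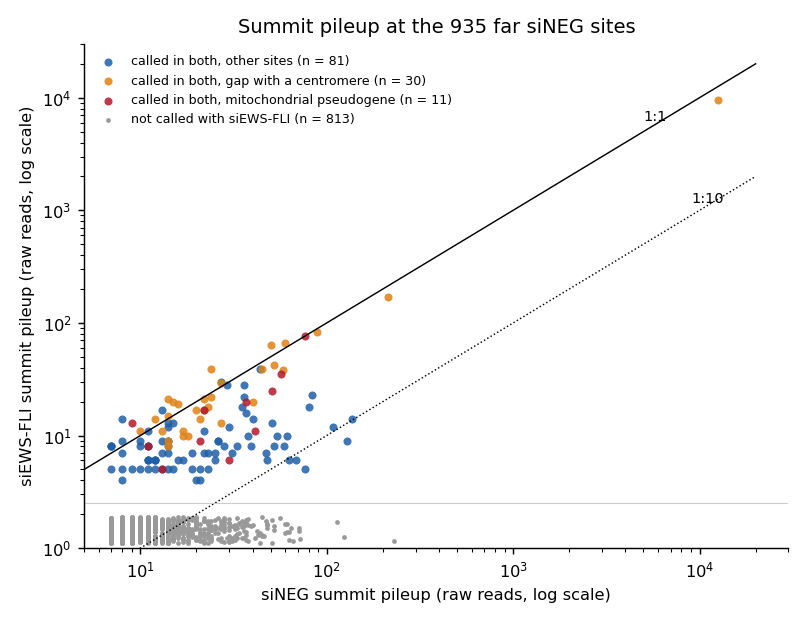
Summit pileup with siEWS-FLI (y) against siNEG (x) at the 935 far sites, in raw reads on log axes, with lines for equal pileups and for a 10-fold lower siEWS-FLI pileup. The 813 sites not called with siEWS-FLI are in the strip under the grey line, at heights that carry no value; the sites with 50 or more siNEG reads in gaps with a centromere or in mitochondrial pseudogenes lie near the line of equal pileups, at ratios of 0.490 to 1.28, and the strongest of the remaining shared sites lie closer to the line of 10-fold.

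The far sites with the highest pileups fell into separate kinds at a cut of 50 siNEG reads. Of the 42 far sites with 50 or more siNEG reads, 10 lay in a mitochondrial pseudogene or in one of 10 gene gaps that hold a centromere, both picked out after the values were seen. All 10 were also called with siEWS-FLI, at ratios of 0.490 to 1.28. Of the other 32, 13 were shared, at ratios of 0.0658 to 0.277, and 19 were called only with siNEG. The median ratio was 0.803 in the first kind and 0.136 at the 13 shared sites of the second. Under 50 siNEG reads the ratios of the kinds overlapped. A mitochondrial pseudogene site with 41 siNEG reads had 0.268. A site between TECRL and EPHA5 with 44, its summit in neither place, had 0.886. The other far site of that gap lay 1.15 kb away, in the mitochondrial pseudogene MTCYBP16. For pseudogenes, sites were classed by the summit alone, so a site close to one counts as outside. At any strength, a ratio of 0.5 or more was found at 39 of 81 shared sites outside both places. It was found at 29 of 30 in the gaps with a centromere and 6 of 11 in the pseudogenes.

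The strongest far site of all was at chr17:22521207-22521639, in the gap between KCNJ18, a potassium channel gene, and WSB1. It had 9614 reads with siEWS-FLI and 12539 with siNEG, a ratio of 0.767. The next, at chr3:93470340-93470889 between EPHA3 and PROS1, had 170 reads with siEWS-FLI (145 to 198, exact Poisson interval) and 213 with siNEG (185 to 244). Both gaps span the centromere of their chromosome, and the summits of the 2 libraries lay 8 and 31 bases apart. The KCNJ18 to WSB1 gap also holds the mitochondrial pseudogene MTCO2P13, at chr17:22528993-22529672, with a siNEG-only far site of 18 reads. A part of mitochondrial reads in the strongest site was not tested.

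Of the 10 strongest shared sites, 7 lay neither in a gap with a centromere nor in a mitochondrial pseudogene, and had ratios of 0.0698 to 0.277. At chr2:181779344-181779916, 99.1 kb from NEUROD1, which encodes a neuronal basic helix-loop-helix factor, and 112 kb from ITPRID2, the pileup was 9 reads with siEWS-FLI (4.12 to 17.1) and 129 with siNEG (108 to 153), a ratio of 0.0698. The site at chr6:131383480-131384522 between AKAP7 and ARG1 was 1043 bases wide and had 12 reads with siEWS-FLI and 108 with siNEG. Between SPRY4, an inhibitor of growth factor signalling, and FGF1, a growth factor gene, the site at chr5:142472265-142472666 had 6 reads with siEWS-FLI and 68 with siNEG. The site at chr3:198098916-198099225, beyond LMLN near the end of the chromosome, had 14 and 136 reads. In each of these 4 the Poisson intervals of the 2 libraries did not overlap.

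The other 3 of these 7 had ratios of 0.164 to 0.277. The TMEM18 to SNTG2 site, whose repeat is printed above, had 23 reads with siEWS-FLI (14.6 to 34.5) and 83 with siNEG (66.1 to 103) at chr2:740045-740894. Between UTP18 and CA10, chr17:51439407-51439917 had 10 and 61 reads in the same order. At chr21:6371752-6372116, inside the lncRNA gene LOC102724701, there were 18 reads with siEWS-FLI and 80 with siNEG.

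The strongest site called only with siNEG was at chr1:30258564-30259258, 932 kb from PTPRU, a receptor tyrosine phosphatase gene, and 452 kb from MATN1, which encodes a cartilage matrix protein. It had 229 siNEG reads (200 to 261). No siEWS-FLI value exists there, since the lists hold pileups only where a peak was called. A second site in the same gap, at chr1:30515688-30516384, had 113 siNEG reads. The gap held 6 far sites, with 27, 19, 9, 229, 113 and 24 siNEG reads along the chromosome, and none was called with siEWS-FLI.

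Other strong siNEG-only sites lay between genes of varied function. At chr21:41091025-41091717, between the neural adhesion gene DSCAM and the protease gene BACE2, there were 124 siNEG reads. The site at chr1:64361952-64362494 between UBE2U and CACHD1 had 71 siNEG reads, and the one at chr7:121603062-121603770 between FAM3C and PTPRZ1 had 63. On the X chromosome, chrX:69294064-69294489 between PJA1 and NALF2 had 63.

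How far the signal of the 813 siNEG-only sites was lower with siEWS-FLI cannot be read from a missing call. The lowest siEWS-FLI pileup at a shared far site was 4 reads. A siEWS-FLI interval lay within 1 kb of 18 of the 813 sites without touching them.

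Far sites were grouped along the genome by gene gap, the stretch between neighbouring protein-coding genes. They fell in 580 gaps, of which 388 held 1 site, 113 held 2 and 79 held 3 or more. Of 912 neighbouring pairs on the same chromosome, 66 were within 10 kb of each other and 196 (21.5%) within 100 kb, and the median spacing was 1105 kb. The 13 gaps with 6 or more sites held 93 sites, 27 of them shared. In 5 of these gaps no site was shared, and in 1 every site was.

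The gap from MYC to GSDMC on chromosome 8, which carries distal elements of the oncogene MYC in several cancers and the lncRNA genes PVT1, LINC00824 and CCDC26, held 9 far sites. None was called with siEWS-FLI. Their siNEG pileups, in order away from MYC, were 35, 9, 7, 7, 12, 22, 34, 60 and 8 reads. The highest of them lay at chr8:129448947-129449892 inside CCDC26, 1707 kb from MYC, and the nearest, with 35 reads, lay 69.4 kb from MYC inside PVT1. On the other side of MYC, the gap from TRIB1 to LRATD2 held 7 far sites with 7 to 56 siNEG reads and none called with siEWS-FLI. The gap from CD83 to JARID2 on chromosome 6 held 8, with 9 to 60 siNEG reads. Only 1 of them, with 6 reads with siEWS-FLI and 11 with siNEG, was shared.

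The opposite pattern was found between CWH43 and DCUN1D4 on chromosome 4, where all 8 far sites were shared. With siEWS-FLI they had 17, 20, 64, 66, 21, 10, 19 and 14 reads along the chromosome, and with siNEG 22, 40, 50, 60, 14, 17, 16 and 12. In 5 of the 8 the siEWS-FLI pileup was the higher of the pair. The KCNJ18 to WSB1 gap held 9 sites, 7 of them shared, with 8 to 9614 reads with siEWS-FLI at those 7 and 10 to 12539 with siNEG at all 9.

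**Figure D3:**
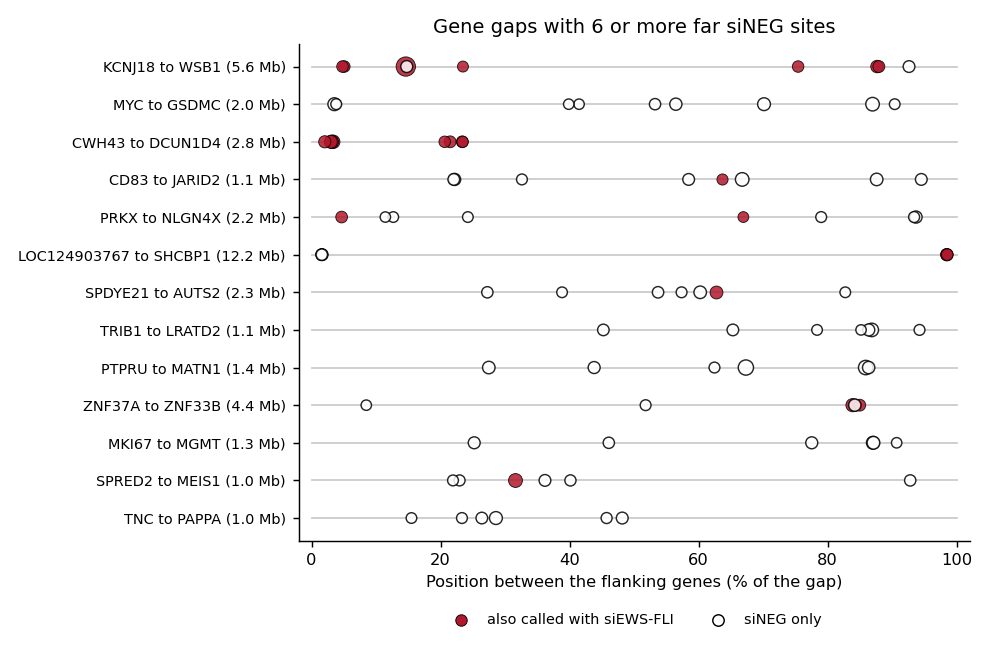
The 13 gene gaps with 6 or more far siNEG sites, 1 line per gap, with each site placed by its position between the flanking genes (x, percent of the gap) and its circle area growing with the log of the siNEG pileup. Filled circles are sites also called with siEWS-FLI and open circles siNEG only; CWH43 to DCUN1D4 holds only filled circles, and MYC to GSDMC and PTPRU to MATN1 only open ones.

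Together the 10 gaps with a centromere held 43 far sites, of which 30 were shared (69.8%, 53.9 to 82.8), with a median ratio of 0.848 and medians of 19.5 reads with siEWS-FLI and 22 with siNEG. The 892 other far sites were shared at 10.3% (8.396 to 12.5), with a median ratio of 0.472 and medians of 8 and 21 reads. Of 76 sites in gaps over 2 Mb outside those 10, 6 were shared (7.89%, 2.95 to 16.4). Local background was also higher where sharing was common. Of 99 far sites with a local background of 2 reads or more, 44 were shared (44.4%), against 78 of 836 with less (9.33%). Outside the 10 gaps and the mitochondrial pseudogenes described below, 22 of 72 such sites were shared (30.6%). Far sites with a local background of 2 reads or more were also stronger. Their median siNEG pileup was 44 reads, against 11 at those with less, and their median −log10 q was 32.1, against 8.16. The part of background in the sharing, apart from strength, was not tested.

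Distance to the nearest gene end had a median of 138 kb, an interquartile range of 81.0 to 293 kb and a maximum of 3717 kb. Sharing was 13.9% (10.4 to 18.1) from 50 to 100 kb, 9.20% (6.30 to 12.9) from 100 to 250 kb and 8.78% (4.76 to 14.6) from 250 to 500 kb. It was 26.4% (18.4 to 35.6) from 500 to 1000 kb and 3 of 13 beyond 1000 kb. In the 500 to 1000 kb class, 15 of the 20 sites in gaps with a centromere were shared, and 14 of the 90 others (15.6%, 8.77 to 24.7). The farthest site, at chr1:125179679-125180567, was 3717 kb from a gene end and had 39 reads with siEWS-FLI (27.7 to 53.3) and 24 with siNEG (15.4 to 35.7). The farthest outside the 10 gaps, at chr3:163468897-163469169 between OTOL1 and SI, had 12 siNEG reads and was called only there. At the near edge, the closest member lay 50.034 kb from a gene end, between ZNF516 and ZNF236, with 10 siNEG reads. The first interval just outside, 49.9 kb from a gene end between PELI1 and LGALSL, had 18 siNEG reads and was called only with siNEG.

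**Figure D4:**
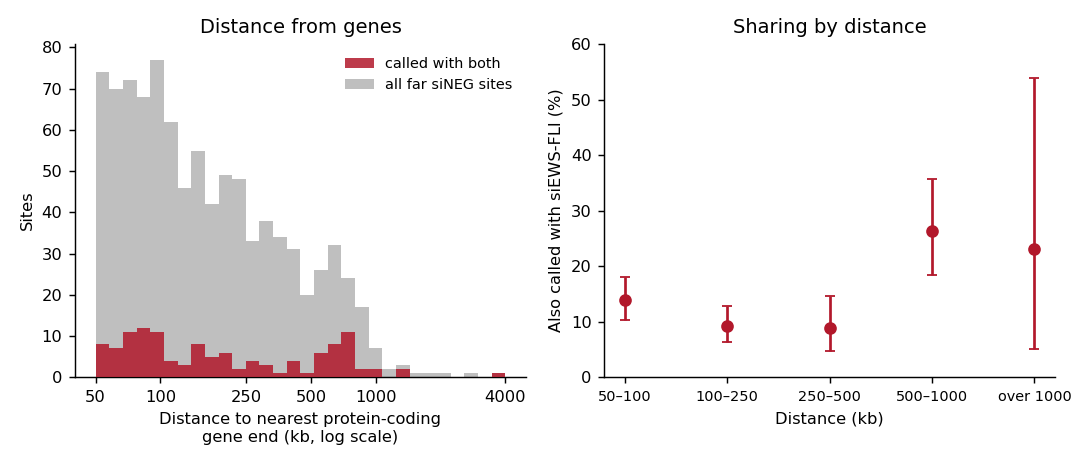
Left, number of far siNEG sites by distance from the nearest protein-coding gene end (x, kb, log scale), with those called in both libraries in front. Right, share also called with siEWS-FLI (y, percent) by distance class, with 95% Clopper-Pearson intervals; the share is 26.4% from 500 to 1000 kb and 8.78 to 13.9% in the 3 nearer classes.

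Chromosome 2 held the most far sites, 108, followed by chromosome 6 with 83, chromosome 1 with 77 and chromosome 8 with 72. Gene-dense chromosome 19 held 1. Per Mb of sequence more than 50 kb from protein-coding genes, the density was 0.797 overall and ran from 0.128 on chromosome 19 to 1.29 on chromosome 6. Sharing differed widely between chromosomes. On chromosome 17, 12 of 22 far sites were shared (54.5%), on chromosome 21, 6 of 14 (42.9%), and on chromosome 4, 14 of 42 (33.3%). The KCNJ18 to WSB1 gap held 7 of the 12 on chromosome 17, and the CWH43 to DCUN1D4 gap 8 of the 14 on chromosome 4. On chromosome 8, 2 of 72 were shared, and none of the 31 on chromosome 11 or the 18 on chromosome 14 was.

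**Figure D5:**
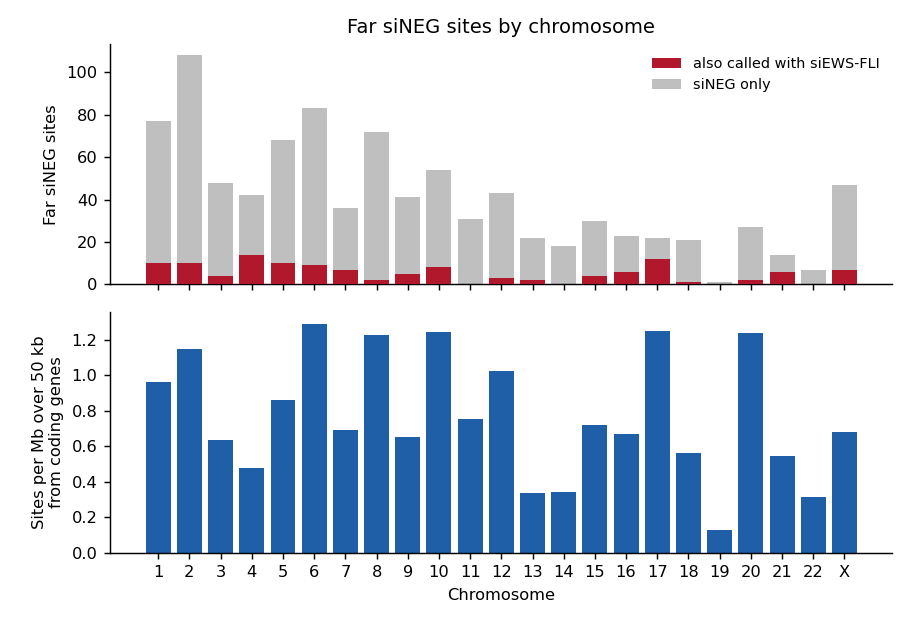
Far siNEG sites by chromosome (x): above, their number (y), with the part also called with siEWS-FLI in front; below, their number per Mb of sequence more than 50 kb from protein-coding genes (y). Chromosome 2 has the most sites (108), chromosome 17 the highest shared share (12 of 22), and chromosomes 11, 14, 19 and 22 have no shared site.

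Most far sites had no annotation at all: 660 of the 935 lay in no RefSeq gene of any type. Another 241 lay inside an lncRNA gene, and were shared at 8.30% (5.14 to 12.5), against 14.7% (12.1 to 17.6) of the 694 outside lncRNA genes. The median ratio at the shared sites was 0.252 inside and 0.601 outside. These groups were not compared with gaps with a centromere and mitochondrial pseudogenes left out. Without those places, 9.23% of all far sites were shared, inside lncRNA genes or not, at a median ratio of 0.432. A part of lncRNA genes in the sharing was not tested.

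A further 15 sites lay in 10 mitochondrial pseudogenes, copies of mitochondrial genes inserted in nuclear chromosomes. Of these 11 were shared (73.3%, 44.9 to 92.2), at a median ratio of 0.541 and a range of 0.200 to 1.44. In MTCO1P40 on chromosome 17, a copy of part of the cytochrome oxidase subunit I gene, chr17:53106186-53106500 had 77 reads with siEWS-FLI and 76 with siNEG, and a second site 11 and 41. The sites in MTCO1P53 on the X chromosome had 35 and 25 reads with siEWS-FLI and 57 and 51 with siNEG. The mitochondrial genome itself reached 66494 reads with siEWS-FLI and 83614 with siNEG. Reads of mitochondrial DNA can match such copies, and their part in these sites was not tested. Over all siNEG intervals at the threshold, 23 of the 30 in mitochondrial pseudogenes were shared. Of the 15 among these that were not far, 12 were shared (80.0%, 51.9 to 95.7), so this was not particular to far sites. Away from the 10 gaps and these pseudogenes, 81 of 878 far sites were shared (9.23%, 7.39 to 11.3).

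Immune receptor loci, which lie outside the protein-coding genes in this annotation, held some members too. Both sites in the immunoglobulin kappa locus IGK were shared, with 30 and 28 reads with siEWS-FLI and 27 and 29 with siNEG. The sites in the immunoglobulin heavy chain locus IGH and the T-cell receptor alpha locus TRA, with 28 siNEG reads each at the strongest, were called only with siNEG. In the T-cell receptor beta locus TRB, 1 site had 11 reads with siEWS-FLI and 11 with siNEG, and another had 10 with siNEG only. These sites were picked after their values were seen.

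The flanking genes were described with gene lists, where a gene counts if it is the nearest protein-coding gene on either side of a far site. This was so for 1085 of 19974 protein-coding genes (5.43%), and for 22.9% of the 4713 that border a gap over 100 kb. Of 36 genes known as EWS-FLI targets or as neighbours of bound GGAA repeats, 6 flanked a far site. These were 6 of the 21 that border such a gap (28.6%), close to the background share. The 6 were VRK1, BCL11B, KIT, SOX2, DLX2 and NKX2-2, with 10 sites among them, and none of the 10 was called with siEWS-FLI, against 13.0% of all far sites and 9.23% of those outside gaps with a centromere and mitochondrial pseudogenes. With so few sites, 0 of 10 and these shares cannot be told apart.

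VRK1, a nuclear kinase gene, and BCL11B, a zinc finger factor gene, flank the same gap on chromosome 14. It held 4 sites, with 47, 72, 19 and 7 siNEG reads along the chromosome. The strongest, at chr14:97215361-97215917, lay 334 kb from VRK1 and 1954 kb from BCL11B. NKX2-2, a homeobox factor of Ewing sarcoma cells, had 1 far site, 53.7 kb away at chr20:21576111-21576788, with 32 siNEG reads. The stem cell factor receptor gene KIT had 2, with 14 and 25 siNEG reads. SOX2, a pluripotency factor gene, had 2 with 9 and 18, and DLX2, a homeobox gene, had 1 with 11.

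Of 14 transcription factor genes linked to the regulatory circuit of Ewing sarcoma cells, 8 flanked a far site. They made up 61.5% of the 13 that border a gap over 100 kb, against 22.9% of all such genes. The 22.9% was not matched for gap size. The neural adhesion and synapse genes below, listed because they often border gene deserts, reached 59.2%, and the developmental factors 38.0%. A link to the Ewing circuit apart from gap size was not tested. Their 24 sites included 2 shared ones (8.33%, against the same 13.0% and 9.23%). MEIS1, a homeobox factor, was next to 7 sites. The strongest, at chr2:65747902-65748584 between SPRED2 and MEIS1, had 5 reads with siEWS-FLI (1.62 to 11.7) and 76 with siNEG (59.9 to 95.1), the lowest ratio of all shared far sites. The summits of the libraries lay 328 bases apart there, so these pileups are not from the same position. The other 6 sites next to MEIS1 had 7 to 16 siNEG reads and were not called with siEWS-FLI. SOX11, a neural progenitor factor gene, was next to 5 sites, 1 of them shared with 8 reads with siEWS-FLI and 28 with siNEG.

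ID2, an inhibitor of basic helix-loop-helix factors, was next to 4 siNEG-only sites, with 7, 7, 32 and 66 siNEG reads approaching the gene. The strongest lay 286 kb from ID2 at chr2:8395632-8396408. TFAP2A was next to 3 sites, POU3F1 to 2, and ISL1 and TCF4 to 1 each, with at most 16 siNEG reads and none called with siEWS-FLI.

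Of 56 developmental transcription factor genes, 19 flanked far sites, 38.0% of the 50 that border a gap over 100 kb. None of their 27 sites was called with siEWS-FLI, against the same 13.0% and 9.23%. The sites were few, and the difference was not tested. The strongest lay 397 kb from FOXD3, a neural crest factor gene, at chr1:62925093-62925778 with 61 siNEG reads. LMO4 was next to a site with 37 siNEG reads. GATA6 had a site 66.2 kb away with 36, and PAX3, a neural crest and muscle factor gene, had 4 sites with 7 to 31.

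Of 49 neural adhesion and synapse genes, which were listed because they often border gene deserts, 29 flanked far sites (59.2%). Their 47 sites included 4 shared ones (8.51%, against the same 13.0% and 9.23%). TENM3, a teneurin adhesion gene, lay 882 kb from a siNEG-only site with 71 reads at chr4:180564777-180565524. LRP1B, a lipoprotein receptor family gene, was next to 3 siNEG-only sites with 19 to 38 reads. NLGN4X, a synaptic neuroligin gene, was next to 8 sites, 2 of them shared. CNTNAP2 had 1 site, with 6 reads with siEWS-FLI and 12 with siNEG.

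The widest sites gave no common pattern. The widest of all, 1432 bases at chr6:8321794-8323225 between EEF1E1 and SLC35B3, had 30 reads and was called only with siNEG, as was the next, chr12:16095454-16096615 near DERA, with 20. At chr21:36639816-36640968, between the tight junction gene CLDN14 and the neural factor gene SIM2, there were 10 reads with siEWS-FLI and 54 with siNEG. The highest ratio, 1.75, came from low pileups of 14 reads with siEWS-FLI (7.65 to 23.5) and 8 with siNEG (3.45 to 15.8) between ZMAT4 and SFRP1, and those intervals overlap.

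Seen from the siEWS-FLI side, 1115 of its 6362 intervals met the same position rule, and 150 of them overlapped a siNEG interval of any strength (13.5%, 11.5 to 15.6), against 41.1% of all siEWS-FLI intervals. Most were small: 994 were exactly 200 bases wide, the narrowest width listed, and 56 of those overlapped a siNEG interval (5.63%). Of the 121 wider ones, 94 did (77.7%). At a −log10 q of 5 or more there were 121 far intervals with siEWS-FLI, 92 of which overlapped a siNEG interval (76.0%), against 90.2% of all 1515 siEWS-FLI intervals at that threshold. The strongest far siEWS-FLI interval with no siNEG overlap had 33 reads and lay in the IGK locus, at chr2:89836403-89836687.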

How the data were processed

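EWS-FLI CUT&Tag was measured in 2 libraries of TC32 cells, 1 given siEWS-FLI and 1 given siNEG. The submitters' processing notes list MACS2 2.2.9.1, Bowtie2 2.4.5, Trim Galore 0.6.6 and the build hg38, and do not say which step each was used for. Whether a control library was used and how duplicates were treated is not given in the sources used here. The authors deposited 1 peak list per library, with a fold enrichment (a ratio), a −log10 p and a −log10 q per summit. These are the authors' values. The authors' integer score column was not used.

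Lines of the same interval were merged, keeping the summit with the highest −log10 q. The summit pileup was rebuilt as a whole number of reads k with a local background. Together they had to give both the deposited fold, (k + 1) over (background + 1), and the deposited Poisson −log10 p. The match to the −log10 p was to within 0.001, a tolerance that was scaled up for values above 10. The rebuild solved 100% of summits in each list, and pileups were not scaled between libraries. This and the overlap steps were tested on simulated data. Reads from PCR without molecular identifiers are not independent molecules, so intervals cover counting error only. Depth as total reads is not given; the library-wide background stands for it.

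Genes came from the RefSeq table of GRCh38.p14, the same build as the files, with 19974 protein-coding and 18177 lncRNA genes. Intervals shared at least 1 base to count as shared. Intervals of shares are 95% Clopper-Pearson, and those of pileups exact Poisson. The gaps over 2 Mb and those with a centromere were marked after the values were seen, with the centromere gaps taken from general knowledge of the flanking genes' chromosome bands, over all gaps of more than 2 Mb with a far site.

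The members and gene lists were chosen with earlier results of these data known. Named sites are the 10 strongest shared and 10 strongest siNEG-only sites, the 5 farthest, the 5 widest, the 5 with the highest ratio, and up to 4 per gene list; 19 of these 44 sites are shared. Other sites were named after their values were seen, and some sites that meet the rule are not reported here. Python 3.11.15, pandas 2.3.3, NumPy 2.4.6 and SciPy 1.17.1 were used. The alternatives changed the overlap, the thresholds, the distance, the gene types and the sites included. The mitochondrial genome and scaffolds outside chromosomes 1 to 22 and X were left out.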

Additional observations from a re-analysis of the deposited data

Results flagged for a closer look

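Outside chromosomes 1 to 22 and X, where no comparison was made, the lists held 50 pairs of overlapping intervals on the mitochondrial genome and on unplaced or random scaffolds. In 10 of the 50 the pileup was higher with siEWS-FLI than with siNEG, which drew attention because the siEWS-FLI library had the lower background. On the mitochondrial genome 2 of 11 pairs were of this kind, the larger with 47389 reads with siEWS-FLI and 43426 with siNEG. The highest such pair on a scaffold had 163 and 127 reads in the same order.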

How the results depend on the processing

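Under 18 alternatives, 15 planned and 3 added after the values were seen, 80 of 116 values stayed within the error or 1.5 times of the main one, 36 moved and none reversed. The values concerned are the number of far sites (935), their shared share (13.0%), the share of the other siNEG intervals (27.5%), the strength-weighted difference (−11.8 points), the median ratio (0.545), the median distance (138 kb) and the share wider than 200 bases (92.9%). Between 15 and 19 of the 44 named sites were shared. With a reciprocal overlap of 50% the far share was 8.88%, the other share 13.5% and the difference −2.77 points. With siEWS-FLI intervals wider than 200 bases only, they were 9.09%, 19.0% and −7.67 points, and the median ratio was 0.655. With the siNEG summit inside the siEWS-FLI interval the other share was 22.01% and the difference −8.37 points. The other share was 29.1% when intervals within 1 kb counted as shared, 25.8% with a siEWS-FLI −log10 q of 2 or more and 29.9% with each peak line counted. With a siNEG −log10 q of 3 or more the far share was 10.7%, the other share 22.3% and 82.9% of far sites were wider than 200 bases. With 10 or more there were 417 far sites, the shares were 20.1% and 43.1%, the difference −18.7 points, the median ratio 0.431 and 99.04% were wider than 200 bases. With 25 kb in place of 50 kb the median distance was 95.8 kb; with 100 kb there were 597 sites at a median of 236 kb. With every gene type counted, 198 sites were left, the other share was 26.2%, the median ratio 0.803 and the median distance 190 kb. Without gaps over 2 Mb the far share was 10.5%, the difference −14.6 points, the median ratio 0.431 and the median distance 120 kb. Without these gaps and mitochondrial pseudogenes they were 9.46%, −15.9 points, 0.408 and 120 kb. No paired analysis was possible because there was 1 library per group. The causes of these moves were not tested. Depth limits what an uncalled site shows: the lists give no siEWS-FLI pileup where no peak was called.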
